A study of Mus musculus with 16 samples.

Results

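The 8 left ventricle libraries of multiparous mice fall into 2 sets by the code in their names, 4 coded MP and 4 coded P. These sets were compared across all genes. The 8 libraries are all the multiparous ones of a series of 16. The other 8 are from virgin mice, carry a code of their own (AA), and serve here only as a reference level. All animals were C57Bl/6J mice aged 24 months, the multiparous ones with a record of more than 3 pregnancies, and none received a treatment. RNA came from the mid section of the left ventricle. The labels do not say what MP and P stand for, so whatever the code marks cannot be told apart from a difference in housing, dissection or preparation that went with it. MP 3, MP 4, MP 8, MP 9, P 7, P 8, P 10 and P 11 are the libraries' own numbers.

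Several of the genes that separated the 2 codes are known targets of the glucocorticoid receptor. This nuclear receptor binds corticosterone, the main stress hormone of mice, and switches on genes such as Zbtb16, Fkbp5 and the metallothioneins in many tissues, the heart among them. Corticosterone itself swings over the day, and the heart also has a molecular clock of its own, in which Arntl and its partners Clock and Npas2 drive the genes of their repressors, the Per, Cry and Nr1d families.

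The multiparous libraries held 34560606 to 47634917 counts in genes in MP and 43813966 to 58890976 in P. The labels give a number of mice per group but do not tie each library to an animal, and a p-value here sets a difference against the variation among libraries, which may be partly technical. The summed level of 8 cardiomyocyte markers was 64715 to 69719 CPM (counts scaled to a common library size) in MP and 69236 to 81990 CPM in P, and none of the 8 genes was called. In a bulk sample, fewer cells of a type and less RNA per cell cannot be told apart. Transcripts used as markers of kidney, liver and brain were present in amounts that differed between libraries, and their values stand beside the genes concerned. Whether they came from other tissue was not tested.

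Of 18123 genes tested, 27 were called, meaning an edgeR adjusted p under 0.05, which is 0.149% of those tested. Higher in MP were 22 (0.121%) and lower in MP were 5 (0.0276%). In all 27 the MP and P libraries did not overlap, and non-overlap alone was found in 1041 genes, 5.74% of those tested. At an unadjusted p under 0.05 stood 2018 genes, or 11.1%, of which 1088 were higher and 930 lower in MP. The median log2 fold change (MP minus P) over all genes tested was 0.00. The virgin mean lay between the MP and P means in 20 of the 27 genes, above both in 6 and below both in 1.

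**Figure D1:**
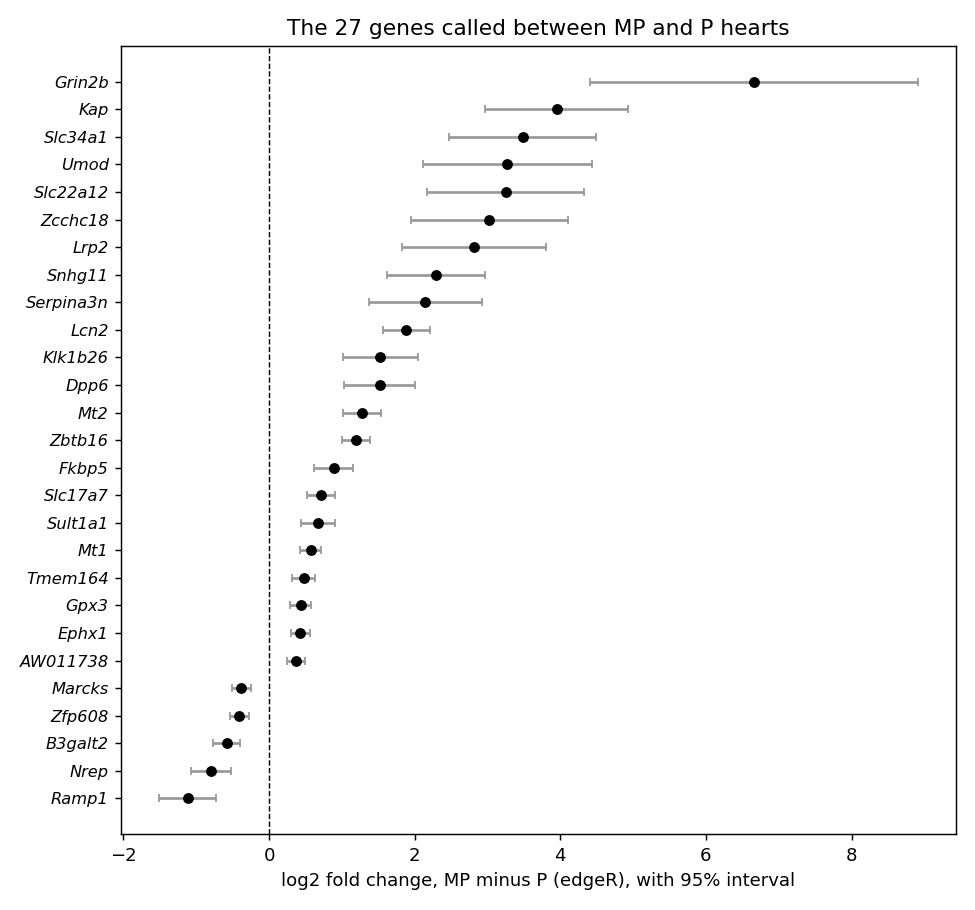
Log2 fold change (MP minus P, horizontal axis) of the 27 called genes with its 95% interval from edgeR, in order of size. The 22 higher genes run from AW011738 at 0.37 to Grin2b at 6.65, and the 5 lower ones from -0.38 for Marcks to -1.12 for Ramp1.

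Zbtb16 had the smallest p of all genes. It encodes a zinc finger repressor (PLZF) that glucocorticoids induce strongly. It measured 152, 162, 149.7 and 159.7 CPM in MP 3, MP 4, MP 8 and MP 9, and 67.4, 81.9, 60.8 and 62.1 CPM in P 7, P 8, P 10 and P 11. The 4 MP hearts lay close together and all stood above the highest P heart, and the virgin hearts, at 86.9 ± 23.9 CPM (SD, n = 8), spanned 61.1 to 138 CPM. The log2 fold change was 1.193 (SE 0.09, edgeR adjusted p = 0.000476). Zbtb16 (ENSMUSG00000066687.5) is a minus-strand gene of chromosome 9 (48654297 to 48836222, GRCm38).

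Fkbp5, a co-chaperone that holds the glucocorticoid receptor in a low-affinity state and is itself induced by it, rose in MP. It measured 27.2, 26.3, 24.6 and 27.6 CPM in MP 3, MP 4, MP 8 and MP 9, and 17.9, 14.9, 13.1 and 10.9 CPM in P 7, P 8, P 10 and P 11. The lowest MP heart lay above the highest P heart, and the virgin mean of 19.6 ± 6.3 CPM (SD, n = 8) fell between them. The log2 fold change was 0.89 (SE 0.12, edgeR adjusted p = 0.0280). Fkbp5 (ENSMUSG00000024222.17) is on the minus strand of chromosome 17, from 28399094 to 28517527. Its call was lost in 5 of the 8 fits that left out 1 library, where its highest edgeR adjusted p was 0.126 and its log2 fold change stayed above 0.

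The metallothioneins, small cysteine-rich proteins that bind zinc and copper and are induced by both metals and glucocorticoids, rose together. Mt2 measured 10.4, 7.72, 9.99 and 9.54 CPM in MP 3, MP 4, MP 8 and MP 9 against 4.55, 3.58, 3.57 and 3.86 CPM in P 7, P 8, P 10 and P 11 (log2 fold change 1.27, SE 0.12, edgeR adjusted p = 0.00209). Mt1 measured 96.6, 78.3, 84.2 and 89.3 CPM against 56.6, 58.7, 59.1 and 60.2 CPM (log2 fold change 0.57, SE 0.07, edgeR adjusted p = 0.00943). In both genes every MP heart exceeded every P heart, and the P hearts varied little around 58.6 ± 1.5 CPM (SD, n = 4) for Mt1. The count of Mt2 is uncertain, since 432 of its 588 exonic bases lie opposite the annotated gene Gm45774 and the strand setting of the counting is not known. Mt1 and Mt2 are near relatives, so reads that fit both may be split between them or dropped.

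The 2 genes are neighbours on chromosome 8. Their promoter windows, from 250 bases before to 50 after the RefSeq start site in GRCm38.p6, are shown because both carry several copies of the metal response element, the site of the zinc-sensing factor MTF1. Capitals mark matches to TGCACNC or TGCGCNC on either strand.
Mt2, chr8:94172368-94172667, plus strand: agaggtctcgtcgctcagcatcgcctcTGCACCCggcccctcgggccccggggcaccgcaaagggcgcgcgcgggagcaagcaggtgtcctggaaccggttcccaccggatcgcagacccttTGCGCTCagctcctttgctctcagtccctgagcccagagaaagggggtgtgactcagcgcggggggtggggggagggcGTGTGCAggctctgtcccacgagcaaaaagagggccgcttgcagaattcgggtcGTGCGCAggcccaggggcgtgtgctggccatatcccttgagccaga
Mt1, chr8:94178839-94179138, plus strand: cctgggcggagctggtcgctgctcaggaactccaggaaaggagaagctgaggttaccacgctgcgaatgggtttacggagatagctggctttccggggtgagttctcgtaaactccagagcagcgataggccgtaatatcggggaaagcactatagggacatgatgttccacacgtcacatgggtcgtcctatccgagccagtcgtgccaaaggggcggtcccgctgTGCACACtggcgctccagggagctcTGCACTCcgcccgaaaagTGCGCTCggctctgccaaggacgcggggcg

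Mt2 held 4 such matches, beginning 223, 128 and 50 bases before the start site and 4 bases after it, and Mt1 held 3, from 23 bases before to 20 after. The element is common: 25.7% of all 32851 windows hold at least 1. RefSeq windows were found for 22 of the 27 called genes, and 8 of their 26 windows hold it. The genes of these 8 windows are all higher in MP, but so are 20 of the 22. A match is a description of the sequence, and no binding was measured.

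Sult1a1, a phenol sulfotransferase and a known glucocorticoid-induced gene of liver, also rose. It measured 32.6, 32.4, 28.4 and 31.1 CPM in MP 3, MP 4, MP 8 and MP 9 and 22.0, 22.7, 16.7 and 16.7 CPM in P 7, P 8, P 10 and P 11 (log2 fold change 0.67, SE 0.11, edgeR adjusted p = 0.0425). The MP hearts lay above every P heart, and the virgin mean was 24.2 ± 7.0 CPM (SD, n = 8). This call held in only 2 of the 8 fits that left out 1 library.

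The glucocorticoid receptor binds as a pair to 2 copies of the half-site AGAACA facing each other across 3 bases (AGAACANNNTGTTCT). The Sult1a1 window is shown because it was the one among the called genes with 2 half-sites, and that of Sgk1, a kinase of the same list of glucocorticoid-induced genes, because it holds the whole palindrome. Capitals mark the half-sites and, in Sgk1, the palindrome that contains 2 of them and an overlapping E-box (CACGTG) and half-site near the left end.
Sult1a1, chr7:126676369-126676668, minus strand: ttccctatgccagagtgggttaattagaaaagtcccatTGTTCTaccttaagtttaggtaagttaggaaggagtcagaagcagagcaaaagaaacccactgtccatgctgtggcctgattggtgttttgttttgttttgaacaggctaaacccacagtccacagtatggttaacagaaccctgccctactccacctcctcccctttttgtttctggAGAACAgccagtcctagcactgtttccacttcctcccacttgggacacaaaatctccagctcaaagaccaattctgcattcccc
Sgk1, chr10:21993640-21993939, plus strand: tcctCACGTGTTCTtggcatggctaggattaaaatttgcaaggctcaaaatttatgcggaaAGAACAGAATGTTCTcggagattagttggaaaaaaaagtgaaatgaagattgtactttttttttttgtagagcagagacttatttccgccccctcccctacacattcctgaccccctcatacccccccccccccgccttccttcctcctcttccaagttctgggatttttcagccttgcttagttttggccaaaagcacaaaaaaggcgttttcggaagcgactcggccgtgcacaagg

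The palindrome begins 189 bases before that start site of Sgk1, and is found in 3 of all 32851 windows (0.00913%). None of the windows of the 22 called genes holds it. The half-site alone, present in 19.0% of all windows, is in 8 of the 26 windows of these 22 genes. Of the called genes on the glucocorticoid list 5 have a window, and 1 of these, Sult1a1, holds a half-site. On the whole list it is in 3 of the 27 genes with a window. The E-box (7.15% of all windows) is in 2 of the 26 windows, of Fkbp5 and B3galt2, and TTATGTAA, the D-box (0.938%), in none. No match says only that these letters are not in the window. Sgk1 itself measured 46.1 to 72.0 CPM in MP and 49.3 to 56.5 CPM in P, and was not called (log2 fold change 0.20, edgeR adjusted p = 0.551).

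The list of 30 glucocorticoid-induced genes had 6 members called, all higher in MP: Zbtb16, Lcn2, Mt2, Mt1, Fkbp5 and Sult1a1. The count was 3 without P 8 and 3 without P 10, and 4 without MP 3, MP 4 or MP 9. It was 2 with all 16 libraries and 2 with the liver sum as a covariate, and with the mesothelial mean 1 member was called higher and 1 lower. The share called over all genes was 0.149%, but the list was drawn up with earlier results of these data known. Of the 30 members 24 had higher and 6 lower means. The list's median log2 fold change was 0.21 against 0.00 over all genes tested, and 12 stood at an unadjusted p under 0.05. Several classical targets were not called. Tsc22d3 (GILZ), which curbs inflammatory signalling, measured 73.2, 56.9, 72.9 and 68.2 CPM in MP against 63.8, 54.7, 47.9 and 52.3 CPM in P (edgeR adjusted p = 0.269), and the ranges overlapped. The transcription factor Klf9 measured 147 to 207 CPM in MP and 114 to 177 CPM in P (log2 fold change 0.19, edgeR adjusted p = 0.639). Per1, a clock repressor that glucocorticoids also induce, measured 56.1, 27.9, 62.8 and 26.4 CPM in MP and 19.7 to 41.3 CPM in P, so that 2 of the MP hearts lay inside the P range (edgeR adjusted p = 0.544).

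**Figure D2:**
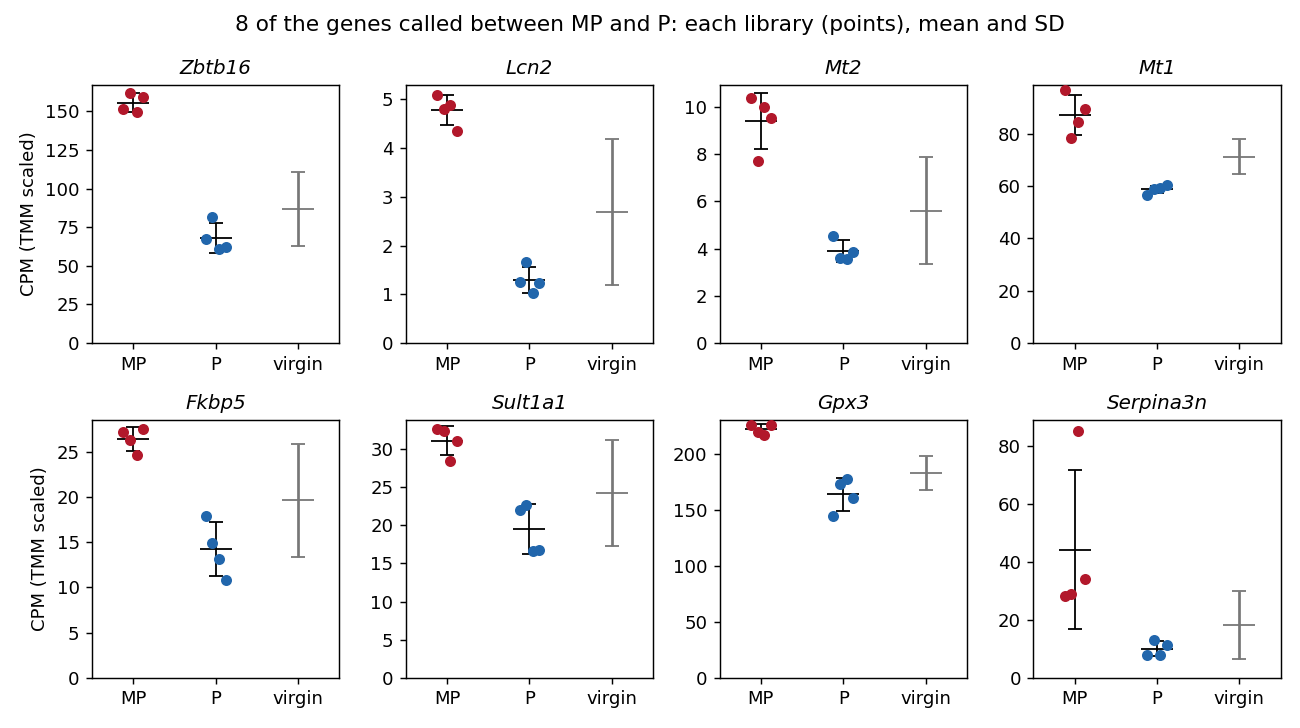
CPM scaled by TMM (vertical axes, from 0) of 8 called genes in the 4 MP (red) and 4 P (blue) libraries, with mean and SD as black bars and the mean and SD of the 8 virgin libraries in grey. In each panel every MP point lies above every P point; Serpina3n in MP 8 (85.2 CPM) stands far above the other MP points.

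Nr3c1, the glucocorticoid receptor, measured 133 to 148 CPM in MP and 149 to 168 CPM in P, with no overlap but no call (log2 fold change -0.16, SE 0.05, edgeR adjusted p = 0.290). Hsd11b1, the enzyme that regenerates active corticosterone inside cells, measured 9.12 to 12.2 CPM in MP and 8.00 to 9.33 CPM in P (log2 fold change 0.27, edgeR adjusted p = 0.356). Of 11 tested genes for the receptor, its chaperones and steroid handling, 5 had higher and 6 lower means in MP, none was called and 2 stood at an unadjusted p under 0.05.

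Lcn2 and Serpina3n, secreted proteins of the acute-phase response, rose in MP. Lcn2 (lipocalin 2), which captures bacterial iron carriers, measured 5.08, 4.81, 4.89 and 4.35 CPM in MP 3, MP 4, MP 8 and MP 9 and 1.25, 1.67, 1.03 and 1.24 CPM in P 7, P 8, P 10 and P 11 (log2 fold change 1.89, SE 0.15, edgeR adjusted p = 0.000476). The lowest MP value was well above the highest P value, while virgin hearts spread from 1.28 to 5.02 CPM and so overlapped both. Lcn2 (ENSMUSG00000026822.14) is on the minus strand of chromosome 2, from 32384633 to 32388252. Serpina3n, a serine protease inhibitor, measured 28.4, 29.0, 85.2 and 34.1 CPM in MP and 7.98, 13.1, 7.85 and 11.2 CPM in P (log2 fold change 2.15, SE 0.35, edgeR adjusted p = 0.0483). MP 8 stood far above the other 7 hearts, and without MP 8 the log2 fold change of Serpina3n was 1.603 (edgeR adjusted p = 0.00619). Its call was lost in 5 of the 8 fits that left out 1 library, those without P 8, P 10, P 11, MP 3 or MP 9. Serpina3n belongs to a cluster of close copies, so its count is uncertain. Of 17 tested acute-phase genes 10 had higher and 7 lower means, and Lcn2 and Serpina3n were the ones called, against 0.149% over all genes. This list too was drawn up with earlier results of these data known, and Lcn2 is also on the glucocorticoid list. In those 5 fits the list had 1 member called, and it had 0 with all 16 libraries or with the mesothelial mean as a covariate. Socs3, an immediate target of interleukin 6 signalling, measured 3.98 to 7.27 CPM in MP and 3.99 to 5.44 CPM in P (edgeR adjusted p = 0.509).

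Among metal and antioxidant genes, 3 of 18 tested were called, Mt1, Mt2 and Gpx3, all higher in MP, against 0.149% over all genes. This list too was drawn up with earlier results of these data known, and Mt1 and Mt2 are also on the glucocorticoid list. The median log2 fold change of the list was 0.21, and 9 members stood at an unadjusted p under 0.05, against 11.1% over all genes. The count was 1 without P 8, 1 without P 10, 1 with all 16 libraries and 1 with the kidney sum as a covariate. With the mesothelial mean it was 0, and with the liver sum 0. The median ran from 0.0912 with the mesothelial mean to 0.2843 with the liver sum. Gpx3, the secreted glutathione peroxidase, measured 225, 219.6, 216 and 226 CPM in MP 3, MP 4, MP 8 and MP 9 and 144, 173, 178 and 160.5 CPM in P 7, P 8, P 10 and P 11 (log2 fold change 0.44, SE 0.07, edgeR adjusted p = 0.0376). The groups did not overlap. Mt3, another metallothionein, measured 0.778 to 1.04 CPM against 0.309 to 0.549 CPM without overlap and was not called (edgeR adjusted p = 0.181). Ephx1, the microsomal epoxide hydrolase, rose from 35.3 ± 2.5 CPM in P to 47.7 ± 1.5 CPM in MP (SD, n = 4 each, log2 fold change 0.43, edgeR adjusted p = 0.0280). Gpx3 and Ephx1 kept their calls in 1 and 3 of the 8 fits that left out 1 library.

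None of the clock genes was called, and 1 library, MP 8, stood apart in many of them. Of 20 clock genes tested, 14 had higher and 6 lower means in MP, and the median log2 fold change was 0.35. At an unadjusted p under 0.05 stood 11 of them, a share to set beside 11.1% over all genes. Without MP 8 the median was 0.16. Per2, a repressor of the loop, measured 12.97, 10.7, 28.6 and 11.2 CPM in MP 3, MP 4, MP 8 and MP 9 and 6.49, 6.04, 6.33 and 6.84 CPM in P 7, P 8, P 10 and P 11 (log2 fold change 1.32, SE 0.28, edgeR adjusted p = 0.112). Every MP heart exceeded every P heart, MP 8 by far. Without MP 8, the log2 fold change of Per2 was 0.86, and it was called (edgeR adjusted p = 0.00671).

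Nr1d1 (REV-ERB alpha), which represses Arntl, measured 134, 124, 140.1 and 147 CPM in MP and 105, 89.2, 90.9 and 123 CPM in P (log2 fold change 0.42, edgeR adjusted p = 0.142), the highest P heart just below the lowest MP heart. Dbp, an output factor, measured 50.3, 29.9, 99.6 and 36.5 CPM in MP and 35.5, 12.9, 21.4 and 36.1 CPM in P, with overlap (edgeR adjusted p = 0.338). Arntl measured 22.1, 28.7, 7.02 and 25.8 CPM in MP and 26.1, 36.0, 33.5 and 26.8 CPM in P (log2 fold change -0.57, edgeR adjusted p = 0.543). MP 8 thus had the lowest Arntl and the highest Per2, Per3 and Dbp of the 8 hearts, and the other 3 MP hearts overlapped the P hearts for Arntl. Npas2 measured 3.54 to 7.97 CPM in MP and 10.0 to 14.2 CPM in P without overlap (log2 fold change -0.88, edgeR adjusted p = 0.143). Clock itself measured 83.1 to 119 CPM in MP and 113 to 121 CPM in P (edgeR adjusted p = 0.572). The labels give no hour of collection.

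**Figure D3:**
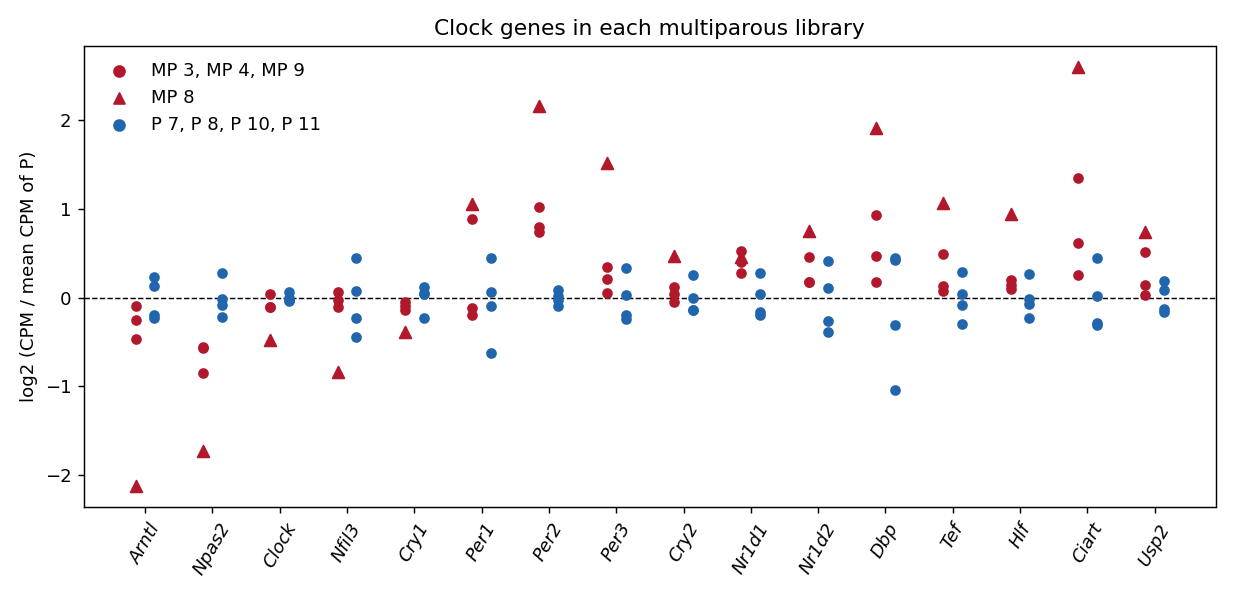
Log2 ratio of each library's CPM to the mean CPM of the P libraries (vertical axis) for 16 clock genes, MP in red with MP 8 as triangles and P in blue. MP 8 lies lowest for Arntl and highest for Per2, while Per2, Nr1d1 and Npas2 show no overlap between MP and P.

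Of 18 kidney tubule markers 9 were tested, of which 7 had higher and 2 lower means in MP. Called were 4, all higher in MP: Kap, Slc34a1, Umod and Lrp2. The share called over all genes was 0.149%. Kap, Slc34a1 and Umod passed the filter on low counts only through the MP libraries, where they were high. The count of this list therefore cannot be weighed against that share. With a mean of at least 1 CPM as the filter, 3 markers were tested and 0 called. With all 16 libraries, or with the kidney, liver or mesothelial covariate, 0 were called. None was called without P 8 or without P 10, 1 without P 11, 2 without MP 3 and 2 without MP 4, while 7 were called without MP 9, and Umod and Lrp2 each lost their call in 6 of the 8 fits. Kap, the androgen-regulated kidney protein, measured 2.19, 1.23, 1.53 and 0.842 CPM in MP 3, MP 4, MP 8 and MP 9 and 0.1202, 0.0375, 0.0514 and 0.184 CPM in P 7, P 8, P 10 and P 11 (edgeR adjusted p = 0.00943). Lrp2 (megalin), the endocytic receptor of the proximal tubule, measured 8.15, 6.04, 5.79 and 2.58 CPM in MP and 0.155, 1.61, 0.566 and 1.01 CPM in P (edgeR adjusted p = 0.0432). No MP heart overlapped a P heart in either gene. The virgin means lay higher still, at 8.38 ± 5.43 CPM for Kap and 21.7 ± 15.3 CPM for Lrp2 (SD, n = 8). The virgin hearts spread widely, however, and in both genes the lowest of them lay below every MP heart. For Lrp2 that lowest virgin heart lay inside the P range. Summed over the 18 markers, the level was 18.4 to 40.1 CPM in MP, 12.3 to 18.3 CPM in P and 23.1 to 145 CPM in virgin hearts.

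The phosphate transporter Slc34a1 and Umod (uromodulin, of the thick ascending limb) were near the lower limit of counting. Slc34a1 had 128 counts in the 4 MP libraries together and 14 in the 4 P libraries, a ratio per total count of 11.6 (exact interval 6.69 to 21.9, counting error only). Umod had 103 and 13 counts, a ratio of 10.1 (exact interval 5.65 to 19.6). Slc22a12, the urate transporter of kidney tubules, was not on the list and was called as well, with 71 and 9 counts. It too passed the filter on low counts only through the MP libraries, where it was high. Its count is uncertain, since 682 of its 2263 exonic bases lie opposite Nrxn2. The same limit holds for Umod, with 539 of 2763 exonic bases opposite Gm44588, and for Slc34a1, with 545 of 4676 opposite Pfn3.

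Of 6 brain markers 5 were tested, of which 4 had higher and 1 lower means in MP. Called was 1, Slc17a7, against 0.149% over all genes, on a list also drawn up with earlier results known. It was not called without P 8, P 10 or P 11, nor with all 16 libraries. It also lost its call with the kidney sum, the liver sum and the mesothelial mean as a covariate. Slc17a7, a vesicular glutamate transporter, measured 67.1, 51.8, 56.6 and 61.7 CPM in MP 3, MP 4, MP 8 and MP 9 and 40.6, 35.5, 35.8 and 33.0 CPM in P 7, P 8, P 10 and P 11 (log2 fold change 0.71, SE 0.09, edgeR adjusted p = 0.0155). The codes did not overlap, and the virgin mean was 42.4 ± 8.6 CPM (SD, n = 8). Grin2b, a subunit of the NMDA glutamate receptor that was on no list, was called too. It passed the filter on low counts only through the MP libraries, and 278 of its 24842 exonic bases lie opposite Gm14329. It had 188, 32, 48 and 17 counts in MP and 1, 0, 2 and 0 counts in P, a ratio per total count of 121 (exact interval 40.99 to 590.2, counting error only). The brain markers Syt1 (0.337 to 3.57 CPM in MP, 0 to 0.0688 CPM in P) and Snap25 (0.168 to 2.96 against 0 to 0.0171 CPM) had the same order, each with its highest value in MP 3. Syt1, which also passed the filter only through the MP libraries, was not called (edgeR adjusted p = 0.0939), and Snap25 fell below the filter. Slc17a7 did not share this pattern, being at 33.0 to 40.6 CPM in the P hearts, where Grin2b had 0 to 2 counts. Snhg11, the ion channel partner Dpp6 and Zcchc18 were also called and were on no list. Snhg11 measured 2.51 to 6.12 CPM in MP and 0.670 to 1.26 CPM in P, and Dpp6 2.74 to 3.76 CPM and 0.787 to 1.60 CPM. Zcchc18 had 80 counts in the MP and 12 in the P libraries together, and passed the filter only through the MP libraries. Its count is uncertain, since 296 of its 4876 exonic bases are shared with Gm15038 on the same strand. Of the 8 fits that left out 1 library, Snhg11 kept its call in 4, Dpp6 in 2 and Zcchc18 in 1.

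All 9 liver markers had lower means in MP (median log2 fold change -3.68), all 9 stood at an unadjusted p under 0.05, and none was called. Alb (albumin) measured 1.36, 3.23, 1.02 and 24.2 CPM in MP 3, MP 4, MP 8 and MP 9 and 1.48, 188, 49.7 and 235 CPM in P 7, P 8, P 10 and P 11. High levels were thus found in 3 of the P hearts and, less so, in MP 9, while P 7 was as low as the other MP hearts. Without P 7, 8 of the 9 markers were called lower and the count of called genes rose to 208, of which 156 were lower. Tat, on the glucocorticoid list but best known as a liver enzyme, measured 0.0205 to 0.337 CPM in MP and 0.0172, 2.08, 1.51 and 3.51 CPM in P, the pattern of the liver markers.

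**Figure D4:**
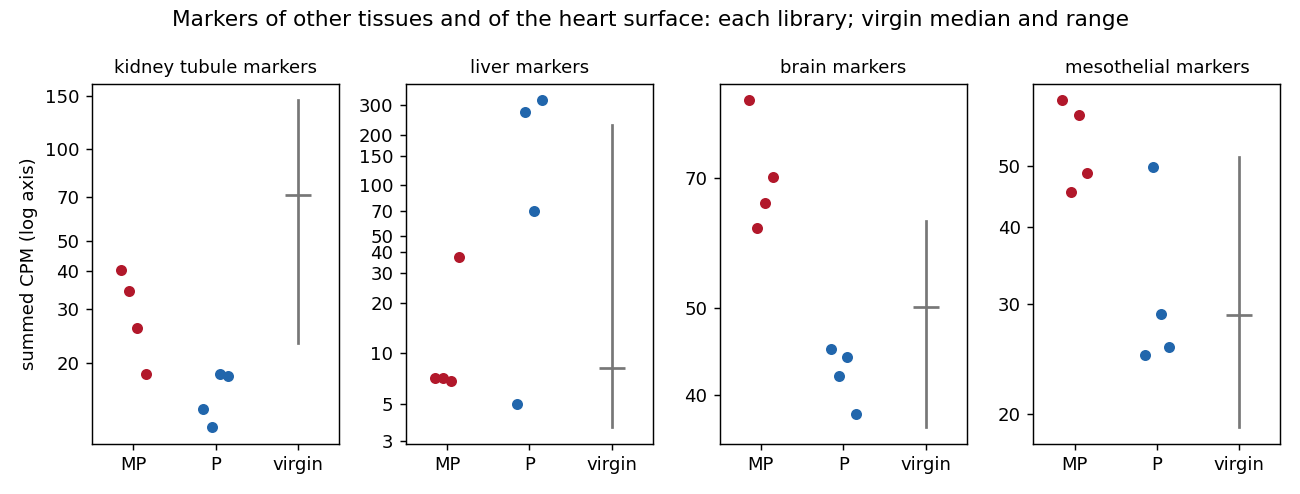
Summed CPM (log axes) of kidney tubule, liver, brain and mesothelial markers in each MP and P library, with the median and range of the 8 virgin libraries in grey. Kidney and brain sums are higher in every MP than in every P library, the liver sum is high in P 8, P 10 and P 11, and P 8 lies among the MP libraries for mesothelial markers.

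The differences in log2 summed CPM, MP minus P, were 0.88 for kidney and 0.73 for brain markers, the latter sum made up largely of Slc17a7. Each had an exact permutation p = 0.0286, the smallest that 4 against 4 libraries allow, and an adjusted p = 0.0857 over the 9 library measures compared. Skeletal muscle markers, at 1.57 to 2.16 CPM in MP and 1.03 to 1.42 CPM in P, gave the same exact permutation p = 0.0286. The liver sum differed by -2.81 (exact permutation p = 0.143) and the total gene count was lower in MP (exact permutation p = 0.0857, adjusted p = 0.193). The part of these sums in the other called genes was not tested as such, but fits with a sum as a covariate were run. The kidney sum did not overlap between the codes, so a fit with both cannot tell them well apart. With the kidney sum, Zbtb16 kept its call among 27 called genes, 3 of them shared with the 27 above. Zbtb16 also kept it with the liver sum and with the mesothelial mean, under which 2 genes each were called.

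The 5 genes lower in MP were of mixed function. Marcks, a membrane and actin binding substrate of protein kinase C, measured 70.2, 79.4, 69.7 and 74.1 CPM in MP 3, MP 4, MP 8 and MP 9 and 92.6, 94.3, 103 and 92.2 CPM in P 7, P 8, P 10 and P 11 (log2 fold change -0.38, edgeR adjusted p = 0.0381). Zfp608, a zinc finger factor, measured 20.2 to 21.1 CPM against 25.98 to 29.7 CPM (log2 fold change -0.41, edgeR adjusted p = 0.0309). Nrep, a protein of neuronal and tissue repair, fell by 0.80 on the log2 scale (9.64 to 12.7 against 15.6 to 21.6 CPM). In none of these did the codes overlap.

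B3galt2, a galactosyltransferase, measured 13.8 to 18.003 CPM in MP and 21.3 to 24.5 CPM in P (log2 fold change -0.58, edgeR adjusted p = 0.0327). Its count is uncertain, since 679 of its 9288 exonic bases lie opposite Cdc73. Ramp1, the partner subunit of the receptor for the vasodilator CGRP, measured 1.18, 1.87, 1.47 and 1.12 CPM in MP and 3.23, 3.22, 3.26 and 2.41 CPM in P (log2 fold change -1.12, SE 0.18, edgeR adjusted p = 0.0432). The virgin mean of Ramp1, 1.69 ± 0.48 CPM (SD, n = 8), was near the MP level. Each of the 5 kept its call in 2 of the 8 fits that left out 1 library. The remaining higher genes were Klk1b26, a kallikrein of a family of near-identical copies (2.05 to 3.64 against 0.803 to 1.37 CPM, count uncertain), Tmem164 (43.1 to 52.8 against 34.0 to 38.1 CPM) and AW011738 (30.1 to 32.8 against 23.5 to 25.9 CPM). Klk1b26 and Tmem164 each kept the call in 2 of these 8 fits, and AW011738 in 1.

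Mesothelial markers, of the cell layer that covers the heart, had 12 of 13 tested members with higher means in MP (median log2 fold change 1.22) and 9 at an unadjusted p under 0.05, and none was called. Their summed level was 45.4 to 63.9 CPM in MP, 49.8 CPM in P 8, and 24.9 to 29.0 CPM in the other 3 P hearts. Bnc1, an epithelial zinc finger factor, measured 0.533 to 1.13 CPM in MP and 0.1202 to 0.525 CPM in P (edgeR adjusted p = 0.152), and Wt1, the epicardial transcription factor, 6.73 to 8.61 CPM and 5.23 to 6.60 CPM (edgeR adjusted p = 0.162). Without P 8 the median of the list was 2.23.

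**Figure D5:**
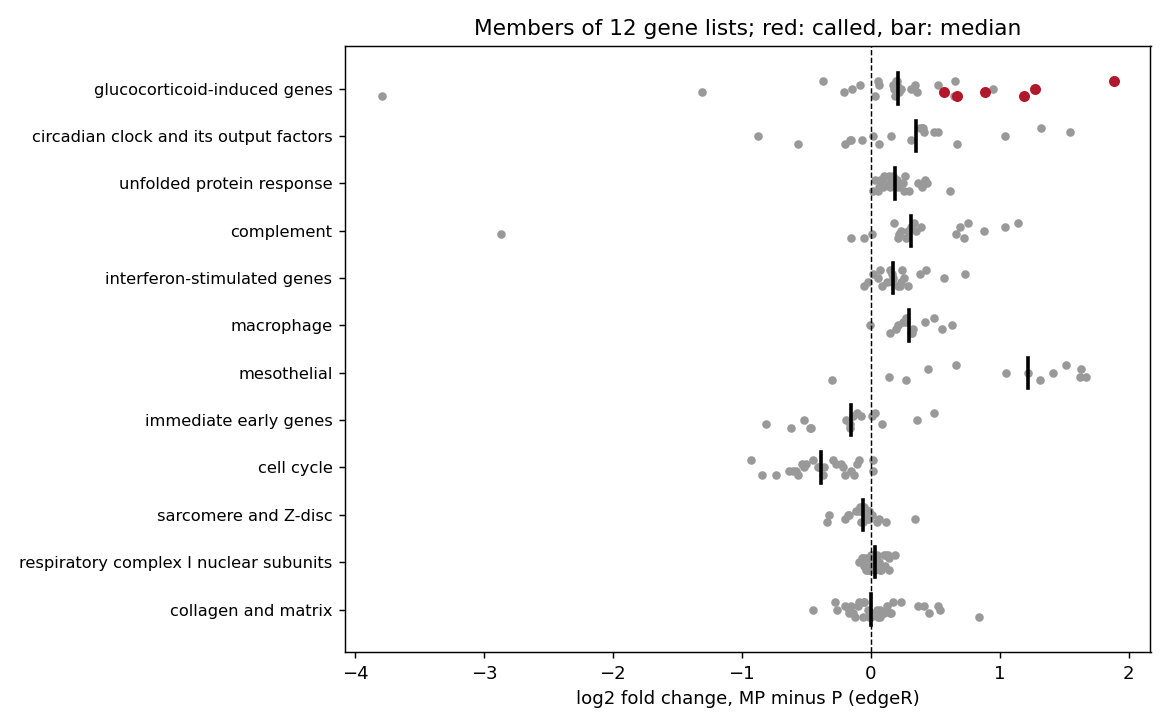
Log2 fold change (MP minus P) of each tested member of 12 gene lists, with called members in red and the list median as a black bar. Among these 12 lists the 6 red points are all in the glucocorticoid-induced one. The other lists with called members (kidney tubule, metal and antioxidant, acute phase, and brain) are not shown. The medians are 1.22 for mesothelial and -0.38 for cell cycle genes.

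Unfolded protein response genes, which serve protein folding in the endoplasmic reticulum, had higher means in MP in 24 of 24 (median log2 fold change 0.19), with 5 at an unadjusted p under 0.05 and 0 called. Herpud1, of endoplasmic reticulum protein degradation, measured 229, 170.0, 168 and 182 CPM in MP 3, MP 4, MP 8 and MP 9 and 145, 142, 134 and 146 CPM in P 7, P 8, P 10 and P 11 (log2 fold change 0.40, edgeR adjusted p = 0.123), without overlap. The summed level of the list was highest in MP 3, at 3686 CPM, and lowest in MP 8, at 2550 CPM, so the MP range held all 4 P hearts (2596 to 3053 CPM). Cell cycle genes had lower means in 24 of 26 (median -0.38), again with 0 called and 4 at an unadjusted p under 0.05. Mcm2, a replication helicase subunit, measured 6.03 to 7.61 CPM in MP and 7.59 to 10.8 CPM in P (edgeR adjusted p = 0.235). Without P 10, which had the highest summed level of the list at 177 CPM, the median was -0.13.

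In the immune lists single libraries stood high. Complement genes had 18 of 21 higher means (median 0.31) and 0 called, and without MP 8 the median was 0.07. C3, the central component, measured 408, 429, 979 and 523 CPM in MP and 382, 445, 338 and 309.7 CPM in P (edgeR adjusted p = 0.335), the ranges overlapping. Interferon-stimulated genes had 19 of 21 higher means (median 0.18, 0 called), which turned to a median of -0.25 without MP 8. T and NK cell markers had 12 of 13 higher means (median 1.23, 0 called), and without MP 9 the median was 0.14. With the kidney sum as a covariate 6 of the 13 were called, all higher in MP. Il7r, the interleukin 7 receptor of lymphocytes, measured 14.1 CPM in MP 9 and 0.859 to 1.72 CPM in the other 7 hearts. Macrophage markers had 13 of 14 higher means (median 0.29, 0 called), with Lyve1 at 18.9 to 38.0 CPM in MP and 14.5 to 20.6 CPM in P (edgeR adjusted p = 0.290).

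No contractile, respiratory chain or matrix gene of the lists was called. Of 24 sarcomere genes 19 had lower means in MP (median log2 fold change -0.06) and 1 stood at an unadjusted p under 0.05, and the 37 complex I and 38 other respiratory subunits had medians of 0.03 each with none at an unadjusted p under 0.05. Myh6, the main adult myosin heavy chain, measured 17979 to 21842 CPM in MP and 20309 to 21582 CPM in P (log2 fold change -0.07, SE 0.12, edgeR adjusted p = 0.873). Atp2a2, the calcium pump, measured 15384 to 18669 CPM and 16600.1 to 18281 CPM. Nppa, the atrial natriuretic peptide, measured 38.9 to 79.9 CPM and 32.1 to 116 CPM (log2 fold change -0.04, edgeR adjusted p = 0.982), and its sign turned in 5 of the alternatives. Of 34 collagen and matrix genes 18 had higher and 16 lower means (median 0.00), with Col1a1 at 73.3 to 114 CPM in MP and 76.8 to 108 CPM in P.

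The median distance over all tested genes, as the root mean square difference in log2 CPM, was 0.46 within MP (6 pairs), 0.43 within P (6 pairs) and 0.51 between codes (16 pairs, from 0.44 to 0.61). The first principal component, with 34.8% of the variance, had scores of 0.06 to 0.41 in MP and of -0.55, -0.45 and -0.29 in P 11, P 8 and P 10. P 7, at 0.18, lay inside the MP range on it.

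Among the lists described or shown above with no call by edgeR, limma voom called none. DESeq2, which called 355 genes in all, called 3 clock and 3 collagen and matrix genes, in each list 2 higher and 1 lower in MP. It also called 2 mesothelial, 1 unfolded protein response and 1 immediate early gene, all higher, and 1 liver gene, lower. The number of called genes moved with the libraries used: 3 without P 10 and 3 without P 8, 6 without P 11, 9 without MP 3, 24 to 27 without MP 4, MP 8 or MP 9, and 208 without P 7. Zbtb16, Lcn2 and Mt2 were called in each of the 8 fits that left out 1 library, Mt1 and Kap in 6 of them, and all 27 genes kept their direction in every setting in which they were tested.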

How the data were processed

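RNA sequencing counts of 8 multiparous left ventricle libraries (4 coded MP, 4 coded P) were compared, with 8 virgin ones as reference. Raw counts, deposited by the authors as 1 file for each library, covered 55487 genes. A stranded kit with ribosomal RNA depletion was used, per the labels' protocols. Per the submitters' processing notes, reads were handled with STAR 2.7.11b and HTSeq 0.11.1 on build GRCm38.p6, and trimming and quality tools included cutadapt 4.8, Trim Galore 0.6.10, SAMtools 1.19.2, FastQC 0.12.1 and bcl2fastq 2.20. Which annotation release and which strand setting were used is not given in the sources used here. Reads not counted in a gene were 26.5% to 33.1% of the total in the 8 libraries (14.9% to 19.0% not aligned, 8.35% to 11.2% in no feature) and stayed out of library sizes and tests. A count of 0 allows up to 3 counts, or 0.0509 to 0.0868 CPM, for counting error only.

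The test was that of edgeR 4.0.16, run in R 4.3.3 (TMM, filterByExpr, quasi-likelihood F-test on code alone, Benjamini-Hochberg adjustment, threshold 0.05), a fit first tested on simulated data. Printed CPM are scaled with TMM factors over all 16 libraries. For library measures, an exact permutation test (two-sided) used all 70 assignments. Alternatives used DESeq2 1.42.0, limma 3.58.1 (voom), other factors and filters, covariates, and fits that dropped a library in turn. Replicates of a code always differed by more than sampling noise. Coordinates are from GENCODE M21 (GRCm38), which held 99.53% of the identifiers once version suffixes were set aside. Promoter windows are from RefSeq (GRCm38.p6).

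The 45 gene and marker lists and the genes compared were chosen with earlier results of these data known. The rule for named genes takes all called genes, up to 4 called members of each list or else the 2 with the smallest p, and 24 set genes. Alb, Tat, Npas2, Per3, Mt3, Socs3, Syt1 and Snap25 were added after their values were seen. Of the 45 lists, the 6 lung markers had no tested member and 0.0877 to 0.377 CPM in sum. The result of 1 gene that the rule takes is not reported here.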

Additional observations from a re-analysis of the deposited data

Results flagged for a closer look

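In 19 of 256 groups of 4 libraries, the highest or lowest library stood apart from its nearest neighbour by more than Dixon's critical share of the group's range. Chance alone flags about 1 in 20 groups. MP 8 and MP 9 were the library in 5 cases each, P 11, MP 3 and P 7 in 2 each, and P 8, MP 4 and P 10 in 1 each.

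MP 8 was high for Serpina3n (85.25 CPM against 28.36 to 34.11 in the other MP libraries), Per2 (28.59 against 10.74 to 12.97), Ifi27l2a (34.15 against 11.33 to 13.28), Zbp1 (9.106 against 2.016 to 2.695) and Postn (68.57 against 37.49 to 42.68). Ifi27l2a and Zbp1 are interferon-stimulated genes.

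MP 9 was high for Il7r (14.15 CPM against 1.096 to 1.719), and for the liver genes Mup3 (0.2246 CPM, with 0 in the other 3) and Apoa2 (1.376 against 0.3683 to 0.4274). Its log2 summed CPM of liver markers was 5.219 against 2.777 to 2.84, and its level of Tnni2, a fast skeletal muscle gene, was low (0.393 CPM against 0.7746 to 0.8327).

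MP 3 was high for Grin2b (4.12 CPM against 0.4772 to 0.9822) and Abcc9 (731.8 against 701.1 to 706.3), and MP 4 for Mylpf (0.6678 against 0.3088 to 0.3287). Among the P libraries, P 7 was high for Ttn (31870 CPM against 21440 to 22300) and low for Ighd (0.9101 against 2.325 to 2.57). P 8 was high for Bnc1 (0.5249 CPM against 0.1202 to 0.1886) and P 10 for Postn (52.79 against 34.27 to 37.36). P 11 was low for Ramp1 (2.409 CPM against 3.225 to 3.258) and Retnlg (0.06884 against 0.3772 to 0.4293).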

How the results depend on the processing

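All 27 called genes kept their direction in every alternative in which they were tested, and Zbtb16 kept its call in all 22, with a highest adjusted p of 0.0467. The number called moved widely, and the cause was not tested. DESeq2 called 355 genes (229 higher and 126 lower in MP), limma voom 13 (11 and 2), and library totals without factors 16 (16 and 0). Without a filter on low counts 91 were called (70 and 21), and with a mean of at least 1 CPM 16 (13 and 3). All 16 libraries in 3 groups gave 2 (2 and 0), and an adjusted p under 0.1 gave 66 (47 and 19). With the kidney sum as a covariate 27 were called (26 and 1), with the mesothelial mean 2 (1 and 1) and with the liver sum 2 (2 and 0). The last covariate and the fit without MP 8 and P 7 together, which called 96 (45 and 51), were chosen after seeing the data. Leaving out 1 library gave 3 to 208 called genes, 3 to 52 higher and 0 to 156 lower.

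Of 44 list medians 28 moved in at least 1 of the alternatives. The median of metal and antioxidant genes moved in 5 (0.0912 to 0.2843 over all alternatives), Schwann cell and nerve markers in 4 (-0.4897 to 0.1758), endothelial markers in 3 (-0.1158 to 0.0021) and T and NK cell markers in 3 (0.1357 to 3.05). The glucocorticoid median was 0.39 with the kidney sum. The clock median was 0.17 with the liver sum and 0.16 to 0.43 with 1 library left out. The mesothelial median was 0.14 with the mesothelial mean, 1.92 with the liver sum and 0.94 to 2.23 with 1 library left out. The kidney median was 0.86 with the kidney sum and 1.14 with the mesothelial mean. The liver median was 0.0814 with the liver sum and -5.945 to -3.152 with 1 library left out.

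Signs turned only in genes that were not called. With the kidney sum the log2 fold changes were -0.0428 for Slc25a20, -0.0531 for Ndufc1, -0.0705 for Ccng1, -0.0594 for Gper1, 0.0188 for Tmem108, 0.14 for Car3, -0.003655 for Mylpf and 0.83 for Nppa. With the liver sum they were 0.0179 for Myh7, 0.0935 for Nppa and 0.0162 for Col1a1, with the mesothelial mean 0.0432 for Atp5k, and with limma voom 0.0546 for Nppa. Without MP 8 and P 7 they were -0.0162 for Hspa1b, -0.16 for Zbp1 and -0.0766 for Postn. With 1 library left out the ranges were -0.10 to 0.97 for Zbp1, -0.0342 to 1.51 for Cfd, -0.49 to 0.19 for Myh7, -0.26 to 0.36 for Nppa and -0.004166 to 0.39 for Postn. The difference in the log2 lung sum ranged from -0.51 to 0.15.

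No paired analysis was possible because MP and P share only 1 library number, 8. Genes near the floor of 3 counts are limited by depth, and 1 library more or less decides many of the calls.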
